A study of Mus musculus with 6 samples.

Results

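The complement components made by macrophages were followed in bone marrow-derived macrophages (BMDMs), over 9 genes: *C1qa*, *C1qb*, *C1qc*, *C3*, *C2*, *Cfb*, *Cfp*, *Serping1* and *C4b*. They were chosen by name, as the non-control spots of the array carrying one of these gene names, and all 9 were found among 34787 gene names on the array, of which 22221 matched a RefSeq symbol. The arrays came from a study of the USP7 inhibitor HBX41,108, a small molecule that blocks the deubiquitinase USP7, and of gene expression induced by lipopolysaccharide (LPS), the bacterial ligand of TLR4. Each of the 6 samples was hybridized to 1 Agilent mouse array in 1 colour (Cy3), with 2 samples in each of 3 groups, described as coming from independent experiments.

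All 6 samples were wild-type BMDMs from female C57BL/6 mice (C57/B6 in the strain label) of 6 to 8 weeks. They were differentiated over 7 days with medium conditioned by L929 cells. The methods of the study name the strain C57BL6/J and give another age range. The untreated group received neither agent. The LPS group received LPS for 4 h, and the LPS + inhibitor group received 10 µM HBX41,108 for 30 min and then LPS for 4 h. The LPS dose was given as 100 ng/ml in the design text and as 100 ng/µl in the treatment label. Whether the untreated and LPS groups received the solvent of the inhibitor was not stated, and no group received the inhibitor alone. All arrays lay on 1 slide, with each group in a slide row of its own, so row and treatment cannot be told apart. Replicate 1 of every group lay in one column of the slide and replicate 2 in the other.

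Complement is a cascade of serum proteins that coat microbes and draw in phagocytes. The classical pathway opens when C1q, built from A, B and C chains, binds its target and its proteases cleave C4 and C2; the alternative pathway amplifies the cleavage of C3 with the help of factor B and is stabilized by properdin. The liver makes most of the components in plasma, whereas C1q and properdin are known as products of myeloid cells, and macrophages also make C3 and factor B locally.

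Values are normalized fluorescence intensities on the log2 scale, so that a step of 1 is a doubling. Differences were tested with limma over all 55680 probes, and a gene was called when its Benjamini-Hochberg adjusted p was under 0.05. Of the macrophage marker genes, 8 of 8 were well above background on all 6 arrays. Among them *Csf1r* had 18.05 and 17.80 log2 in untreated BMDMs, 17.68 and 17.64 with LPS and 17.56 and 17.31 with LPS and the inhibitor. Replicates of a group correlated over 20721 probes above background with Pearson r of 0.996 in untreated, 0.993 in LPS and 0.991 in LPS + inhibitor BMDMs, a description across probes, which are not independent replicates.

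*C3* and *Cfb* were the members called in the main fit. LPS raised *C3* 9.55-fold and *Cfb* 21.3-fold, and with the USP7 inhibitor both were lower than with LPS alone, by -2.46 and -3.12 on the log2 scale. The 3 C1q chains and *Cfp* had bright spots in every group and were not called in any comparison of the main fit. *C2* and *C4b* gave dim spots that were above background on all 6 arrays, and *Serping1* was above background only with LPS.

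**Figure D1:**
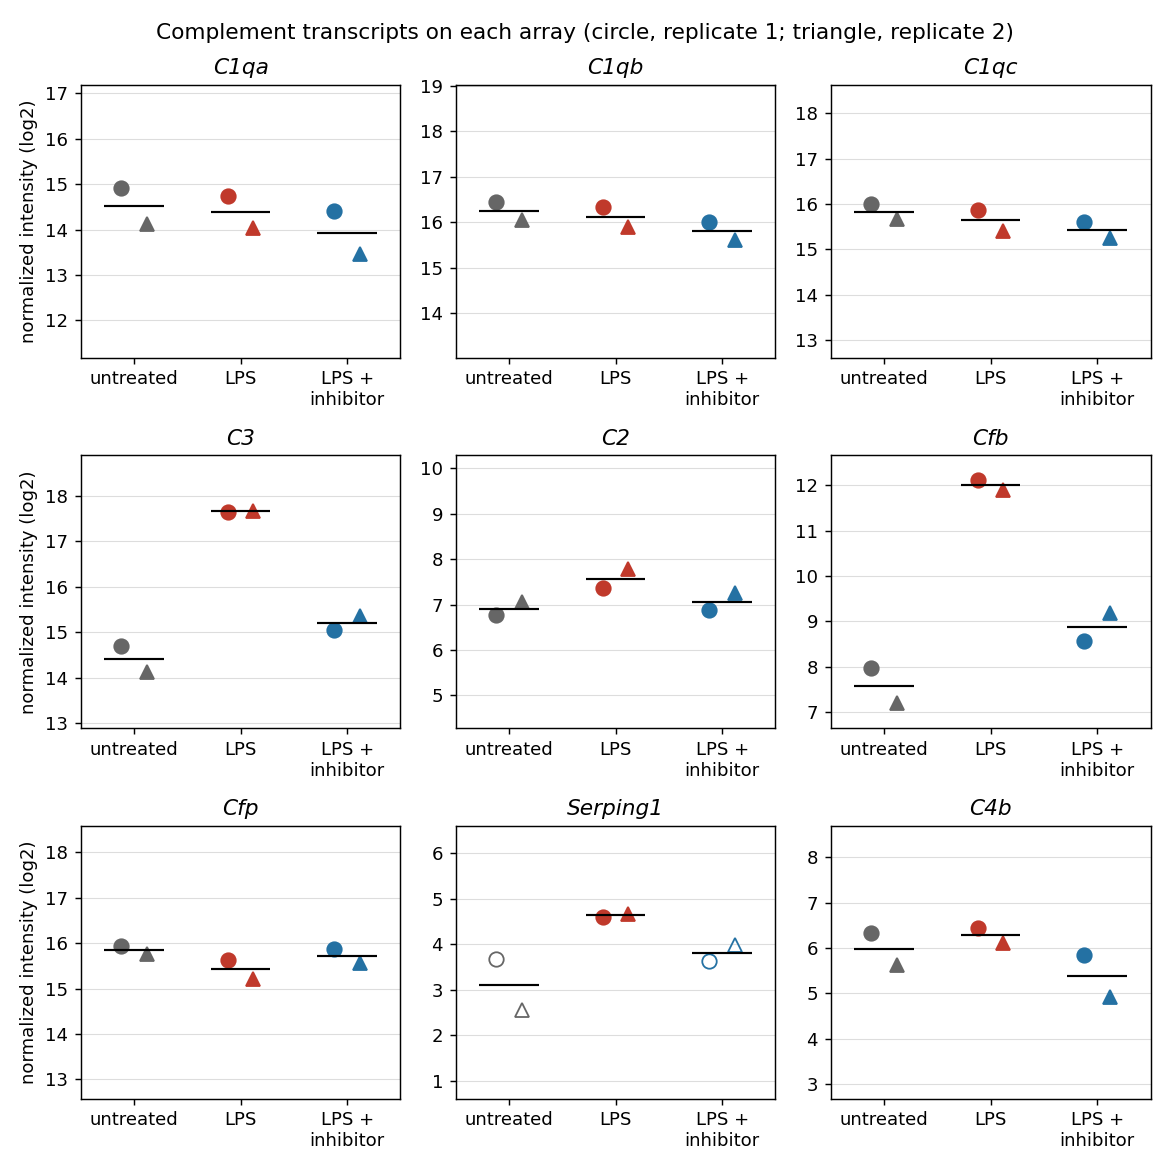
Normalized intensity (log2, y axis) of the 9 complement genes on each of the 6 arrays, by group (x axis), with every panel spanning the same number of log2 units. Circles are replicate 1, triangles replicate 2, bars the group means, and open symbols a group in which the probe was not well above background. *C3* at 17.65 and 17.67 and *Cfb* at 12.10 and 11.90 with LPS stand above both other groups.

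*C3* encodes the central component, on which all pathways converge. The probe spotted 10 times on the array gave 14.70 and 14.12 log2 in untreated BMDMs, 17.65 and 17.67 with LPS and 15.04 and 15.36 with LPS and the USP7 inhibitor. Both LPS arrays were above all others, both LPS + inhibitor arrays lay slightly above both untreated arrays, and no groups overlapped. A second *C3* probe, spotted once, gave 13.98 and 13.37 log2 in untreated BMDMs, 16.98 and 16.89 with LPS and 14.52 and 14.44 with LPS and the inhibitor, in the same order of groups.

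The 10 spots of *C3* also show the error within an array. Their SD was 0.04 log2 on both LPS arrays and 0.07 on the second LPS + inhibitor array, the largest of the 6. The untreated arrays differed more from each other than the spots did within either, since the spots ranged from 14.64 to 14.77 on the first and from 14.03 to 14.17 on the second. *C1qc* was likewise spotted 10 times, and its spots had SDs from 0.02 log2 on the first LPS array to 0.12 on the second.

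**Figure D2:**
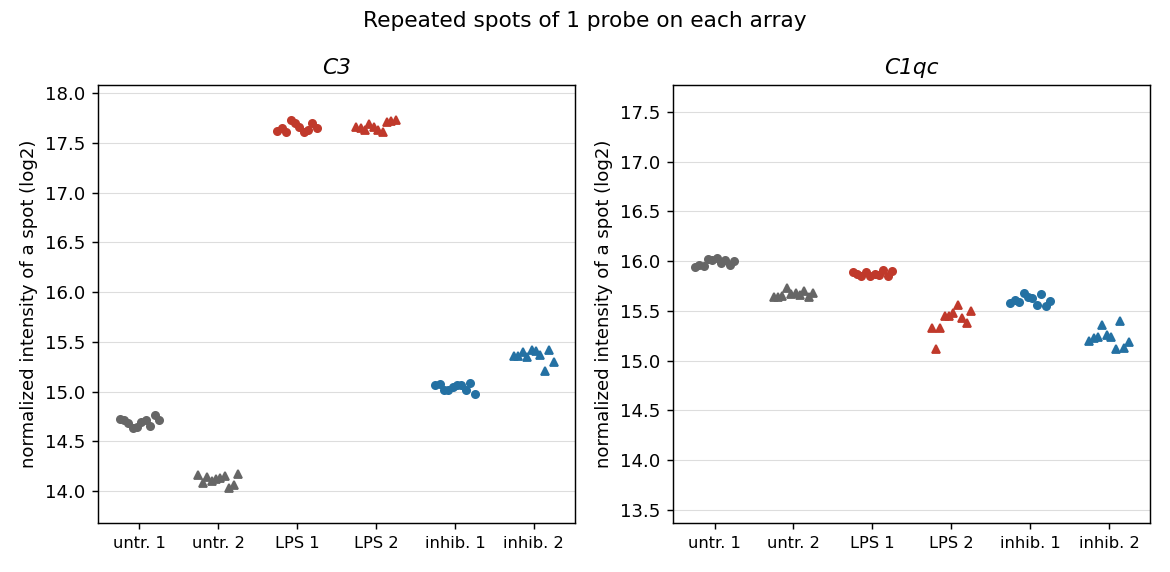
Normalized intensity (log2, y axis) of the 10 repeated spots of the *C3* probe and of the *C1qc* probe on each array (x axis), colored by group, with circles for replicate 1 and triangles for replicate 2. *C3* spots on the LPS arrays lie between 17.61 and 17.73, apart from the other 4 arrays, while *C1qc* spots lie higher in replicate 1 than in replicate 2 of each group.

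*Cfb* encodes factor B, the protease subunit of the alternative pathway convertase. Its probe gave 7.97 and 7.21 log2 in untreated BMDMs, 12.10 and 11.90 with LPS and 8.58 and 9.19 with LPS and the USP7 inhibitor. The LPS arrays were again the highest and the untreated arrays the lowest, with no overlap between groups. The *Cfb* probe is shown because the change in *Cfb* rests on it, and the second *C3* probe because it moved like the one spotted 10 times; each is given 5′ to 3′, on the minus strand, with its mm9 position from the array files. The *C3* probe shown mapped to chr17:57343678-57343737. The *Cfb* probe mapped to chr17:34993502-34993858, where its 60 bases were spread over 357 genomic bases, so that it joined sequences from both sides of a gap.
C3: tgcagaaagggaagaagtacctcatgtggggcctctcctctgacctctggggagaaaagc
Cfb: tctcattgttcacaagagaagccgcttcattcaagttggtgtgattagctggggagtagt

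With LPS, *C3* was 3.25 log2 higher than in untreated BMDMs (95% confidence interval 2.60 to 3.91, limma adjusted p = 0.00525) and its second probe 3.26 higher (adjusted p = 0.00484). *Cfb* was 4.42 log2 higher (95% confidence interval 3.44 to 5.40, adjusted p = 0.00615). Both were higher on the LPS array of each replicate number, by 2.96 and 3.55 for *C3* and by 4.13 and 4.70 for *Cfb*. These were the 2 of 9 members called higher with LPS, where 7.98% of 34786 genes tested were called higher; 0 members were called lower, where 12.8% of genes were. At an unadjusted p under 0.05 there were 4 of 9, where 33.1% of genes were in either direction, all of them higher: *C3*, *Cfb*, *C2* and *Serping1*. Both calls held under all 15 alternative settings of the analysis, with differences from 2.97 to 3.80 log2 for *C3* and from 3.99 to 4.80 for *Cfb*.

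In LPS-treated BMDMs that had received the USP7 inhibitor, *C3* was lower than with LPS alone by -2.46 log2 (95% confidence interval -3.12 to -1.80, limma adjusted p = 0.0193), a 5.50-fold difference, and its second probe by -2.46 (adjusted p = 0.0178). *Cfb* was lower by -3.12 log2 (95% confidence interval -4.10 to -2.14, adjusted p = 0.0244), an 8.67-fold difference. Again 2 of 9 members were called lower, where 4.27% of genes were, and 0 were called higher, where 5.52% of genes were. At an unadjusted p under 0.05 the count of members was also 2 of 9, where 26.0% of genes were in either direction.

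The calls against LPS alone had little margin over the threshold, although the differences themselves moved little. *C3* was called under 9 of 15 alternatives, with differences from -2.62 to -2.30 log2 and adjusted p from 0.00108 to 0.0815, and *Cfb* under 8 of 15, with differences from -3.42 to -2.81 log2 and adjusted p from 0.000608 to 0.103. Fitting the LPS and LPS + inhibitor arrays without the untreated ones gave adjusted p = 0.0561 for *C3* and 0.0623 for *Cfb*, and in that fit 0 of all genes were called, against 3404 in the fit over 3 groups. Leaving out single arrays ended the *C3* call in 5 of 6 cases: without either untreated array, either LPS array or LPS + inhibitor replicate 1. The same 5 omissions ended the *Cfb* call. Leaving out either untreated array gave the same result as the fit without the untreated group, since a lone array adds nothing to the estimated spread. These settings are thus the same result, counted more than once among the 15 alternatives. With replicate number as a block the adjusted p was 0.0459 for *C3* and 0.0539 for *Cfb*.

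Compared with untreated BMDMs, *C3* in LPS + inhibitor BMDMs was 0.79 log2 higher (95% confidence interval 0.14 to 1.45, adjusted p = 0.133) and *Cfb* 1.30 higher (95% confidence interval 0.32 to 2.28, adjusted p = 0.109). With limma 0 members were called in either direction, where 6.16% of genes were called higher and 8.71% lower; at an unadjusted p under 0.05 there were 2 of 9, *C3* and *Cfb*, where 28.8% of genes were in either direction. Both were called under 3 of 15 alternatives, with adjusted p for *C3* of 0.0223 after 75th percentile scaling, 0.0401 after normexp background correction and 0.0463 with dim probes left out, over a range of 0.0223 to 0.355. For *Cfb* these were 0.0418, 0.0234 and 0.0301, over a range of 0.0234 to 0.288. The size of the difference was uneven between replicate numbers, at 0.35 and 1.24 log2 for *C3* and at 0.61 and 1.99 for *Cfb*.

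**Figure D3:**
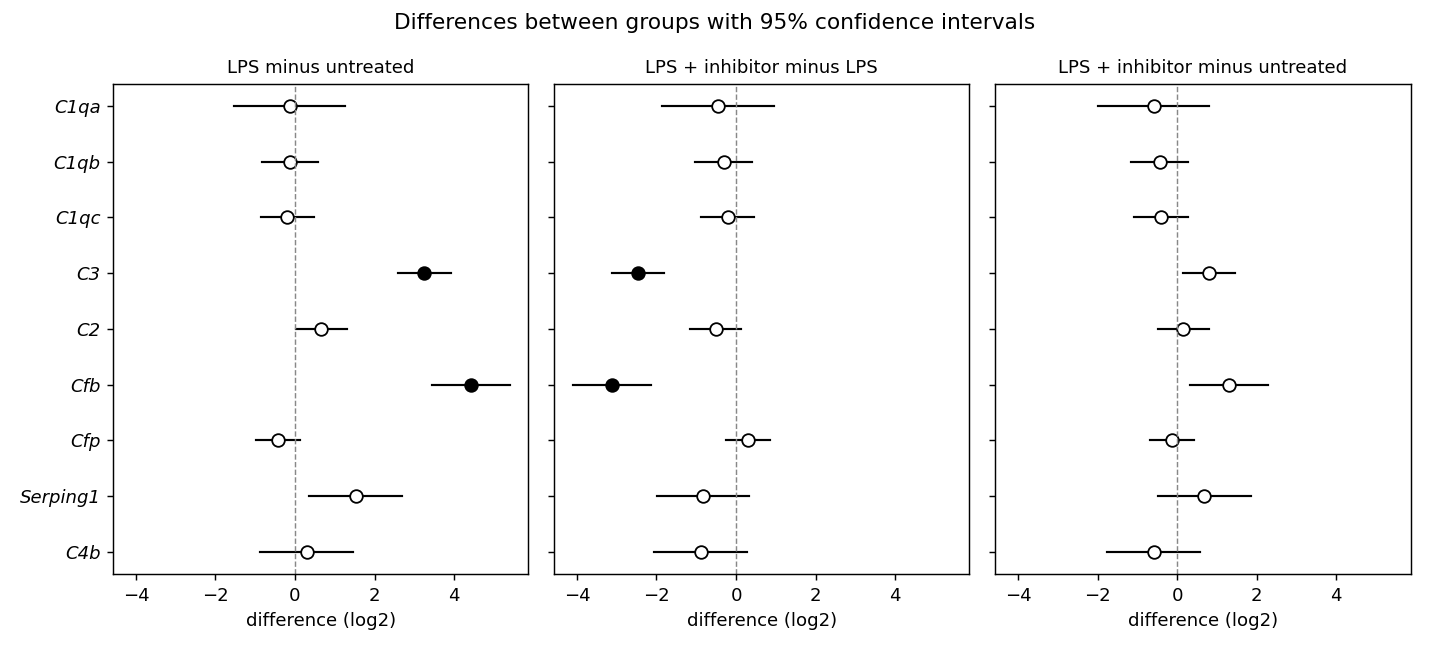
Differences between groups (log2, x axis) for the 9 complement genes (y axis) in the 3 comparisons. Points are limma estimates from 2 arrays a group, lines their 95% confidence intervals, and filled points genes with an adjusted p under 0.05. *C3* and *Cfb* are filled in the LPS and in the LPS + inhibitor against LPS panels, at 3.25 and 4.42 and at -2.46 and -3.12.

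*Cfp* encodes properdin, which stabilizes the alternative pathway convertase. Its probe gave 15.95 and 15.76 log2 in untreated BMDMs, 15.64 and 15.21 with LPS and 15.86 and 15.57 with LPS and the USP7 inhibitor. The LPS arrays were the lowest and the untreated ones the highest of each replicate number, and the LPS + inhibitor arrays overlapped both other groups. *Cfp* differed by -0.43 log2 with LPS (95% confidence interval -0.98 to 0.12, adjusted p = 0.283) and by 0.30 between LPS + inhibitor and LPS (95% confidence interval -0.26 to 0.85, adjusted p = 0.544), so neither difference passed the test. The first ranged from -0.64 to -0.22 and the second from 0.083 to 0.51 when single arrays were left out. Under 75th percentile scaling the difference with LPS was 0.16, and -0.24 relative to the median of all genes, which that scaling moved.

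The 3 chains of C1q are encoded side by side: their probes mapped in the order *C1qb*, *C1qc*, *C1qa* to chromosome 4, with 9188 and 6643 bases between the probe starts, and RefSeq lists the genes as neighbors. The probes of *C1qa* (chr4:136452409-136452468) and *C1qb* (chr4:136436578-136436637), both on the minus strand of mm9, are shown since the genes differ in sequence but had similar patterns.
C1qa: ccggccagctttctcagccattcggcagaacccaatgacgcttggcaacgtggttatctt
C1qb: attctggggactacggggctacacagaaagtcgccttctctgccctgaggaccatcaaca

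*C1qa* gave 14.91 and 14.12 log2 in untreated BMDMs, 14.74 and 14.03 with LPS and 14.42 and 13.45 with LPS and the USP7 inhibitor. *C1qb* gave 16.44 and 16.04 log2 in untreated BMDMs, 16.34 and 15.89 with LPS and 16.01 and 15.60 with LPS and the USP7 inhibitor. *C1qc* gave 15.99 and 15.67 log2 in untreated BMDMs, 15.88 and 15.40 with LPS and 15.61 and 15.25 with LPS and the USP7 inhibitor. In each group, replicate 1 was above replicate 2 for all 3 chains, and the untreated and LPS groups overlapped. The LPS + inhibitor arrays were the lowest of each replicate number for all 3 chains, and for *C1qb* and *C1qc* they did not overlap the untreated arrays.

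The differences with LPS were -0.13 log2 for *C1qa*, -0.13 for *C1qb* and -0.19 for *C1qc*, and these signs flipped under 75th percentile scaling, to 0.46, 0.44 and 0.36. That scaling moved the median of all genes by 0.40 log2 in this comparison, and relative to the shifted median the chains were at 0.06, 0.03 and -0.04. Between LPS + inhibitor and LPS the chains differed by -0.45, -0.31 and -0.21 log2 and stayed below 0 under 75th percentile scaling. Against untreated BMDMs the LPS + inhibitor group was at -0.58, -0.43 and -0.40 log2, where *C1qc* flipped to 0.0021 under that scaling, which moved the median of all genes by 0.44. None of these 9 differences was called, the lowest adjusted p being 0.455 for *C1qb* against untreated BMDMs. With replicate number as a block, that difference had adjusted p = 0.0397, and those of *C1qa* and *C1qc* against untreated BMDMs 0.0530 and 0.0641. With 2 arrays a group the confidence intervals were wide, reaching from -1.53 to 1.27 log2 for *C1qa* with LPS and from -0.86 to 0.48 for *C1qc*. As the samples were whole cultures, fewer cells making a transcript and less of it in each cell cannot be told apart.

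**Figure D4:**
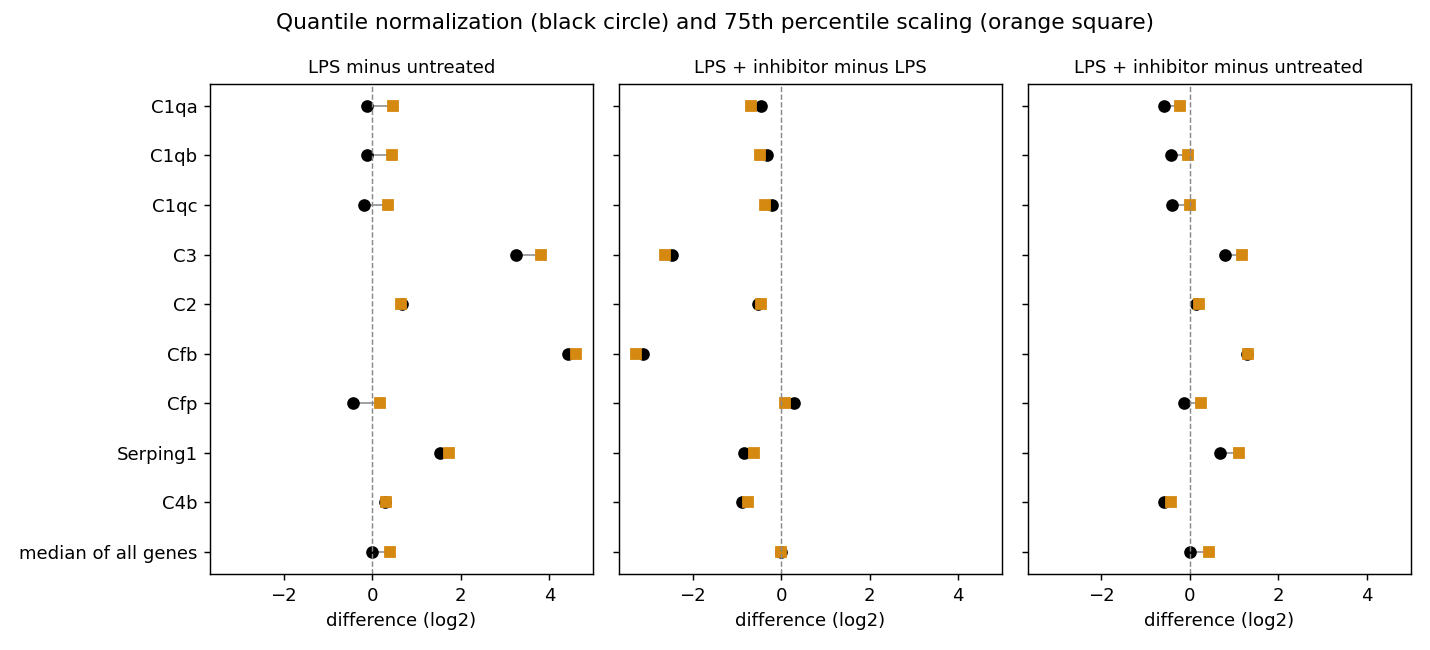
Differences between groups (log2, x axis) for the 9 complement genes and the median of all genes (y axis) after quantile normalization (black circles) and after 75th percentile scaling (orange squares). In the LPS panel the median of all genes moves from 0.0016 to 0.40 and the C1q chains and *Cfp* move across 0, while *C3* and *Cfb* stay above 3 log2.

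*C2* and *C4b* encode the components that form the classical pathway convertase, and they lie with *Cfb* in the major histocompatibility complex. Their probes mapped to the minus strand of chromosome 17 in mm9, that of *C2* 6073 bases from the *Cfb* probe and that of *C4b* 128174 bases from it. *C2* gave 6.77 and 7.05 log2 in untreated BMDMs, 7.36 and 7.79 with LPS and 6.87 and 7.25 with LPS and the USP7 inhibitor. The LPS arrays were the highest, above both other groups, which overlapped. The difference with LPS was 0.66 log2 (95% confidence interval 0.02 to 1.30, limma adjusted p = 0.161). That between LPS + inhibitor and LPS was -0.51 (95% confidence interval -1.15 to 0.13, adjusted p = 0.327). These were the same signs as for *C3* and *Cfb* in smaller size, without a call in the main fit. With replicate number as a block, the *C2* difference with LPS was called (limma adjusted p = 0.0244), and that between LPS + inhibitor and LPS was not (0.0597). *C4b* gave 6.33 and 5.64 log2 in untreated BMDMs, 6.44 and 6.12 with LPS and 5.85 and 4.93 with LPS and the USP7 inhibitor. Replicate 2 was the lower in each group, and the LPS + inhibitor arrays were both below both LPS arrays. *C4b* differed by 0.30 log2 with LPS (adjusted p = 0.771) and by -0.89 between LPS + inhibitor and LPS (95% confidence interval -2.06 to 0.29, adjusted p = 0.355), the latter from -1.35 to -0.43 when single arrays were left out. The *C4b* probe is also annotated to a transcript of its near-identical copy *C4a*, so the value may belong to either gene.

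*Serping1* encodes C1 inhibitor, which blocks the C1r and C1s proteases. The brighter of its 2 probes gave 3.68 and 2.55 log2 in untreated BMDMs, 4.60 and 4.67 with LPS and 3.62 and 3.98 with LPS and the USP7 inhibitor, and was well above background only on the 2 LPS arrays. It therefore has only a bound: at least 1.65-fold higher with LPS than in untreated BMDMs (limma adjusted p = 0.0948) and at least 1.28-fold higher with LPS alone than with the inhibitor (adjusted p = 0.385), the dimmer group being set at the lowest signal well above background where that was higher than its own. Neither difference was called. The difference with LPS was 1.52 log2, but 0.26 after normexp background correction and 0.59 in the deposited values, both smaller than the bound, and that between LPS + inhibitor and LPS was -0.84, but -0.23 after normexp, again smaller. The adjusted p with LPS was 0.0346 without the first untreated array and up to 0.262 without other single arrays; the 0.0247 reached with dim probes left out is not counted as a call, since *Serping1* passed that filter through the LPS arrays alone. On none of the 6 arrays did the other *Serping1* probe stand well above background.

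Over the 9 members, the median difference was 0.30 log2 with LPS, where that of all genes was 0.0016, -0.51 between LPS + inhibitor and LPS, where it was 0.00092, and -0.13 between LPS + inhibitor and untreated BMDMs, where it was -0.0021. The comparisons share arrays, so their values are not independent of each other. The 0.30 with LPS was the value of *C4b*, which ranged from -0.053 to 0.64 when single arrays were left out. Under 75th percentile scaling, *C4b* with LPS was at -0.09 relative to the median of all genes. The split of all genes called depended on the scaling: with LPS 2775 genes were higher and 4443 lower after quantile normalization, but 12150 were higher and 4048 lower after 75th percentile scaling, and between LPS + inhibitor and untreated BMDMs 2144 were higher and 3031 lower against 12182 and 3354. For LPS + inhibitor against LPS the split was 1919 higher and 1485 lower, and 1715 and 1417 after that scaling.

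The rest of the complement system was read from a list of 51 further gene names, of which 46 were found on the array. Of these, 21 were above background on all 6 arrays and 18 on none. *C1s*, *C4a*, *C5*, *Daf2* and *Gpr77* were not found under these names, which does not mean that the genes were not measured under another name. With LPS 4 were called higher and 5 lower, where 7.98% and 12.8% of all genes were; between LPS + inhibitor and LPS 0 were higher and 4 lower, where 5.52% and 4.27% were; and between LPS + inhibitor and untreated BMDMs 1 was higher and 2 lower, where 6.16% and 8.71% were. At an unadjusted p under 0.05, between LPS + inhibitor and LPS 6 of 46 were higher and 7 lower, where 14.3% and 11.7% of all genes were. In the 3 comparisons the medians of the list were 0.0051, -0.0063 and 0.012 log2. Under 75th percentile scaling, 18 of 46 were called higher and 3 lower with LPS, where 34.9% and 11.6% of all genes were. Between LPS + inhibitor and untreated BMDMs, 12 were then higher and 3 lower, where 35% and 9.64% of all genes were.

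The 13 initiators of the classical and lectin pathways include the C1r and C1s proteases that C1q activates. *C1ra* gave 9.21 and 9.08 log2 in untreated BMDMs, 10.68 and 10.42 with LPS and 9.48 and 9.37 with LPS and the USP7 inhibitor. *C1rb* gave 6.55 and 6.44 log2 in untreated BMDMs, 8.16 and 7.63 with LPS and 6.62 and 6.46 with LPS and the USP7 inhibitor. Both were highest on the LPS arrays, and the other groups were close to each other. *C1ra* was 1.40 log2 higher with LPS (adjusted p = 0.00685) and fell by 1.12 between LPS and LPS + inhibitor (adjusted p = 0.0223), and a second *C1ra* probe gave 1.46 and -1.27. *C1rb* was 1.40 log2 higher with LPS (adjusted p = 0.0212) and fell by 1.36 with the inhibitor (adjusted p = 0.0399). The genes are near-identical copies, so their spots may share transcripts and the values are uncertain as to the copy. The LPS difference of *C1ra* was called under all 15 alternatives, while that of *C1rb* had adjusted p of 0.0931 and 0.110 without the first and second untreated array and 0.0537 without either LPS + inhibitor array, and 0.0558 with the deposited values. The inhibitor difference was called under 9 of 15 alternatives for *C1ra* and 8 of 15 for *C1rb*. Without either untreated array, without LPS replicate 1, and without LPS + inhibitor replicate 1 and 2, its adjusted p was 0.0728, 0.0591, 0.0722 and 0.0638 for *C1ra* and 0.109, 0.0591, 0.121 and 0.118 for *C1rb*, which had 0.0556 with the deposited values.

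*C1s2* gave 2.84 and 3.16 log2 in untreated BMDMs, 4.96 and 4.96 with LPS and 3.83 and 3.70 with LPS and the USP7 inhibitor, with only the LPS arrays well above background. It was at least 2.07-fold higher with LPS than in untreated BMDMs (adjusted p = 0.00487) and at least 1.60-fold higher than with LPS and the inhibitor (adjusted p = 0.0239). The bounds hold for the quantile-normalized signals: the difference with LPS was 1.96 log2 there, but 0.42 after normexp background correction, 0.93 in the deposited values and 0.97 as the mean over probes, all smaller than the bound, although the call was met. Between LPS + inhibitor and LPS the difference was -1.19 log2, but -0.35, -0.67 and -0.56 in the same alternatives, also smaller than the bound. Without the filter on dim probes, which *C1s2*, like *Serping1*, passed through the LPS arrays alone, the first call was met under 14 of 14 alternatives and the second under 4 of 14. The second was lost without any 1 of the 6 arrays, with adjusted p from 0.0569 to 0.0965, and with the deposited values (0.108), a trended prior (0.119) and the replicate block (0.0516). The call of *C1s2* between LPS + inhibitor and untreated BMDMs compared groups that were both not well above background, as did every comparison of *Masp2*, a protease of the lectin pathway and the fourth gene called lower with the inhibitor. A second *C1s2* probe was not above background on any array. *C1s1*, a near-identical copy of *C1s2* named after its values were seen, gave 3.79 and 2.73 log2 in untreated BMDMs, 5.46 and 4.98 with LPS and 3.91 and 3.64 with LPS and the USP7 inhibitor, again with only the LPS arrays well above background. It was at least 2.48-fold higher with LPS than in untreated BMDMs (adjusted p = 0.0521) and at least 1.92-fold higher than with LPS and the inhibitor (adjusted p = 0.145), without a call, and past the threshold under 6 and 1 of 14 alternatives. Its LPS difference was 1.97 log2, but 0.39 after normexp background correction and 0.83 in the deposited values, and that between LPS + inhibitor and LPS was -1.44, but -0.40 and -0.74, all smaller than the bounds. Fibroblasts are known to make C1r and C1s. Of the fibroblast markers, 0 of 6 were above background on all arrays and 4 of 6 on none, *Col1a1* among them. *Dcn*, above background on 5 arrays, was 1.05 log2 higher with LPS (limma adjusted p = 0.335) and differed by -0.76 between LPS + inhibitor and LPS (adjusted p = 0.552). These were the same signs as for the C1r and C1s genes, and *Dcn* was called under 0 of 15 alternatives. Its differences ranged from 0.59 to 1.52 and from -1.37 to -0.14 when single arrays were left out. The other fibroblast markers were not called. In these comparisons *Col1a2* was at 0.23 and -0.20, *Col3a1* at 0.44 and 0.45 and *Col1a1* at -0.26 and 0.10. *Pdgfra* was at 0.0084 and -0.0099 and *Lum* at -0.014 and 0.027. The summed signal of that list on the linear scale was 64.2 and 67.9 in untreated, 114 and 83.6 in LPS and 96.6 and 69.0 in LPS + inhibitor BMDMs. The part of fibroblasts in these values was not tested.

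Among the regulators, *Clu*, encoding clusterin, a fluid-phase inhibitor of the terminal complex, was 0.46 log2 higher with LPS (adjusted p = 0.0131), the only one of 8 soluble and 5 membrane regulators called by its brightest probe in any comparison, where 7.98% of all genes were called higher with LPS. That call was lost without the first untreated array (adjusted p = 0.0719) or the second (0.0784), and with the deposited values (0.36 log2, adjusted p = 0.228). Under 75th percentile scaling *Clu* was at 0.46 log2 with LPS (limma adjusted p = 0.00943), and at 0.06 relative to the median of all genes. *Cfhr2*, named after its values were seen, had probes that disagreed, both above background on all arrays. The brighter was at 0.50 log2 with LPS, -0.34 between LPS + inhibitor and LPS and 0.16 between LPS + inhibitor and untreated BMDMs, without a call; the other was at -0.38, -0.73 and -1.12, with adjusted p of 0.107, 0.0394 and 0.0126. With replicate number as a block, the LPS difference of the brighter probe had adjusted p = 0.0466, over a range of 0.0466 to 0.853. *Cd55*, whose product speeds the decay of convertases, gave 8.13 and 6.37 log2 in untreated BMDMs, 10.75 and 9.50 with LPS and 8.22 and 7.99 with LPS and the USP7 inhibitor. The LPS arrays were the highest, but the replicates of the untreated and LPS groups lay more than 1 log2 apart. The difference was 2.87 log2 with LPS (95% confidence interval 0.75 to 4.99, adjusted p = 0.0879) and -2.02 between LPS + inhibitor and LPS (adjusted p = 0.241). The first was called under 5 of 15 alternatives, over adjusted p from 0.0137 to 0.263. *Cr1l*, encoding the membrane regulator Crry, differed by 0.22 and -0.18 log2 in these comparisons, without a call. With LPS, it was called after 75th percentile scaling (adjusted p = 0.0209, over a range of 0.0209 to 0.603).

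The 5 genes called lower with LPS were among the 12 receptors and proteins that bind C1q on the list, where 12.8% of all genes were called lower; whether the class differed from all genes was not tested. *Cd93* gave 15.47 and 15.53 log2 in untreated BMDMs, 14.47 and 14.71 with LPS and 13.98 and 14.34 with LPS and the USP7 inhibitor. *Lrp1* gave 13.49 and 13.82 log2 in untreated BMDMs, 12.49 and 12.49 with LPS and 12.44 and 12.14 with LPS and the USP7 inhibitor. In both genes the untreated arrays were above all 4 others. *Cd93* was lower with LPS by -0.91 log2 (adjusted p = 0.0326) and *Lrp1* by -1.17 (adjusted p = 0.0193), and against untreated BMDMs both were also called lower in the LPS + inhibitor group, by -1.34 (adjusted p = 0.0177) and -1.37 (adjusted p = 0.0179). The LPS call of *Cd93* was lost without any 1 of the 4 arrays compared, with adjusted p of 0.127 and 0.147 without the untreated and 0.125 and 0.0769 without the LPS arrays, and that of *Lrp1* without untreated replicate 2 (0.0752), LPS replicate 1 (0.0911) or LPS replicate 2 (0.0845). Against untreated BMDMs, the call of *Cd93* was lost without either untreated array (0.0874 and 0.0963), and that of *Lrp1* without either untreated array (0.0543 and 0.0734), either LPS array (0.0570) or LPS + inhibitor replicate 2 (0.0580). Of the 3 *Lrp1* probes, another above background gave 0.02 log2 with LPS, so the probes disagreed. *Itgam*, the alpha chain of complement receptor 3, was at -0.66 log2 by its brightest probe, *C1qbp* at -0.52 and *Calr* at -0.35. The other *Itgam* probes, both above background on all arrays, were at -0.48 (adjusted p = 0.228) and -0.0019, and with the mean over probes *Itgam* was not called (-0.38, adjusted p = 0.0553). *Itgam* lost its call without any 1 of the 4 arrays compared (adjusted p from 0.0809 to 0.118), *C1qbp* without any array but LPS replicate 2 (0.0658 to 0.138) and *Calr* without any 1 of the 6 (0.0656 to 0.164). With the deposited values *C1qbp* (0.141) and *Calr* (0.274) were not called, nor was *Calr* with dim probes left out (0.0599) or the replicate block (0.0595). Of the 5 genes only *Lrp1* kept its call under 75th percentile scaling: *Cd93* was at -0.32 log2 (adjusted p = 0.339), *Itgam* at -0.22 (0.1003), *C1qbp* at -0.08 (0.628) and *Calr* at 0.22 (0.139). Relative to the median of all genes under that scaling they were at -0.72, -0.63, -0.48 and -0.19. None of the receptors was called between LPS + inhibitor and LPS.

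The receptors for the released fragments C3a and C5a were not called with LPS or between LPS + inhibitor and LPS in the main fit. *C3ar1* gave 13.95 and 13.61 log2 in untreated BMDMs, 13.34 and 12.97 with LPS and 13.36 and 12.88 with LPS and the USP7 inhibitor. *C5ar1* gave 12.84 and 12.97 log2 in untreated BMDMs, 13.64 and 14.05 with LPS and 12.57 and 13.06 with LPS and the USP7 inhibitor. The untreated and LPS groups of *C3ar1* did not overlap, and the LPS arrays of *C5ar1* were above all others. *C3ar1* differed by -0.63 log2 with LPS (adjusted p = 0.212, but 0.0246 with replicate number as a block) and -0.03 between LPS + inhibitor and LPS, and *C5ar1* by 0.94 (adjusted p = 0.0746) and -1.03 (adjusted p = 0.0859). *C5ar1* with LPS was called under 5 of 15 alternatives, over adjusted p from 0.0127 to 0.253, and between LPS + inhibitor and LPS under 3 of 15, from 0.0131 to 0.230. The other C5a receptor, *C5ar2*, named after its values were seen, gave 10.77 and 10.58 log2 in untreated BMDMs, 9.60 and 9.88 with LPS and 11.23 and 10.30 with LPS and the USP7 inhibitor by its brightest probe. It differed by -0.93 with LPS (adjusted p = 0.185) and 1.03 between LPS + inhibitor and LPS (adjusted p = 0.194), signs opposite to those of *C5ar1*. Another probe gave -0.98 and -0.08, so the probes disagreed in the second comparison. The difference with LPS was called under 3 of 15 alternatives, which are the same result. They are the fit of the untreated and LPS arrays alone (limma adjusted p = 0.0491) and the equal fits without either LPS + inhibitor array. The second difference was called under 1, without LPS + inhibitor replicate 2, where it was 1.49 log2. Over the alternatives the differences ranged from -1.07 to -0.80 and from 0.47 to 1.49 log2.

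**Figure D5:**
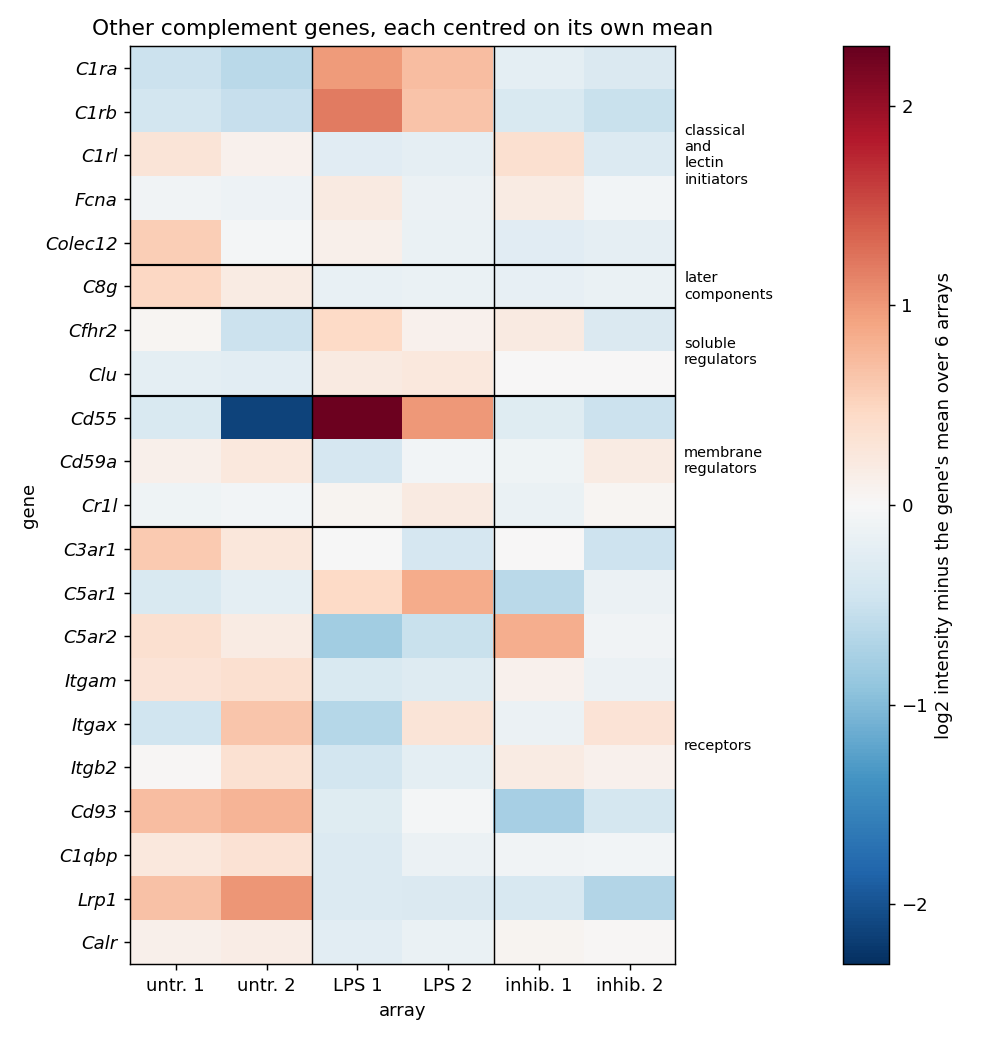
Normalized log2 intensity of the 21 other complement genes above background on all arrays (y axis, by class) on each of the 6 arrays (x axis), centered on each gene's mean, with a color scale from -2.3 to 2.3 log2. *C1ra*, *C1rb* and *Cd55* are red on both LPS arrays, and *Cd93* and *Lrp1* are red on both untreated arrays.

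Markers of other cell types were also read. Of the neutrophil markers 5 of 6 were above background on all arrays, with a summed linear signal of 5199 and 6822 in untreated, 5759 and 11229 in LPS and 6165 and 9513 in LPS + inhibitor BMDMs. The B cell markers, 2 of 4 above background on all arrays, summed to 1043 and 656, 1137 and 518, and 686 and 281. The dendritic cell markers, 1 of 5 above background on all arrays and 3 on none, summed to 1402 and 1036, 1899 and 1065, and 1046 and 877. One of them, *Zbtb46*, was above background in the LPS and LPS + inhibitor groups only, at least 5.65-fold and 4.41-fold higher than in untreated BMDMs (adjusted p = 0.00435 and 0.00806). The differences were 0.90 and 0.65 log2 after normexp background correction and 1.73 and 1.31 in the deposited values, all smaller than the bounds; the second call was lost without either untreated array (0.0526 and 0.0561). T cell markers had 1 of 3 and mast cell markers 0 of 3 above background on all arrays. The macrophage markers summed to 729329 and 721266, 723673 and 748579, and 628259 and 587336, the LPS + inhibitor arrays being the lowest. Single macrophage markers also differed between groups. *Itgam* is described above. *Cd14* was 1.69 log2 higher with LPS (adjusted p = 0.00518), under all 15 alternatives, and differed by -1.31 between LPS + inhibitor and LPS (adjusted p = 0.0184), under 10 of 15. *Fcgr1* differed by -1.60 between LPS + inhibitor and LPS (adjusted p = 0.0317) and by -1.26 against untreated BMDMs (adjusted p = 0.0374), each under 8 of 15; with LPS it was at 0.34, called only under 75th percentile scaling (0.0322, over a range of 0.0322 to 0.931). The omissions that ended these calls gave adjusted p of 0.0658 to 0.0721 for *Cd14*, and 0.0593 to 0.121 and 0.0540 to 0.130 for *Fcgr1*. *Cd14*, *Fcgr1*, *Zbtb46* and *Dcn* were named after their values were seen. The part of other cells in the complement values was not tested.

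The genes with the most similar pattern were taken from 11648 candidates above background on all 6 arrays, by the root-mean-square difference of centered log2 values over these arrays. For the mean of the C1q chains they were *Sirpb1c* at 0.070 log2, then *Igfbp4*, *Slit1*, *Hps1* and *Ascl2*. As for the C1q chains, replicate 1 was above replicate 2 in every group for each of these genes. *Sirpb1c* gave 11.95 and 11.43 log2 in untreated BMDMs, 11.62 and 11.16 with LPS and 11.49 and 10.88 with LPS and the inhibitor. The match thus includes the gap between replicates and does not describe the treatments alone. For *C3* they were *Cd83* at 0.13, then *Tlr3*, *Lcn2*, *Gbp10* and *Stat5a*. For *Cfb* they were *Slco3a1* at 0.15, then *Gbp11*, *Snn*, *Nox1* and *Ccnd2*. Under 75th percentile scaling 0 of the 5 genes named for C1q and 1 of the 5 named for *C3* were among the closest 5.

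Promoter windows of RefSeq (GRCm38.p6) were given for 4 of the 9 genes, *C1qb*, *C1qc*, *C3* and *Cfp*. The 250 bases before the start of *C3* are shown, as the one of these genes called with LPS. They lie at chr17:57228137-57228386 on the minus strand of that build.
C3 promoter: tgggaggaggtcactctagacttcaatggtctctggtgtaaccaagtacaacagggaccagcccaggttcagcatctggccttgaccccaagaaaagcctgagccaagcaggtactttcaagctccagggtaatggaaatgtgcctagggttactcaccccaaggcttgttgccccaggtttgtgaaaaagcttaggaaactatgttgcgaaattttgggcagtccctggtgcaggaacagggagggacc
These windows were searched on both strands for GAAANNGAA, part of the interferon-stimulated response element, for TTCNNNGAA, a STAT site, and for GGNNNTTCC, part of a kB site. Of 32851 such windows of all genes, 7.13% held the first, 7.02% the STAT letters and 15.7% the kB letters. None of the 4 windows held any of them, so the sequence has no capitals; this says only that the letters are not in these bases.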

How the data were processed

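Spot intensities on the linear scale, deposited as Agilent Feature Extraction files, had been background-subtracted and detrended within each array by the scanner software, on a design annotated to mm9. A table of log2 values deposited with them was quantile-normalized by the authors with limma (medians from 5.07 to 5.10) and served as an alternative; its background correction is not given in the sources used here. Processed signals were taken to log2 and quantile-normalized over 59305 non-control spots, after spots marked as outliers (119 to 172 an array) were set missing; 0 spots were saturated. Spots of a probe were averaged, and a gene was represented by its brightest probe, with every probe of a member reported. Groups were fitted together with lmFit and eBayes (limma 3.58.1, R 4.3.3), with p-values adjusted by Benjamini-Hochberg over 55680 probes. The procedure was run on simulated data with independent noise and large changes. That run does not check smaller changes or differences shared by replicates of the same number. The number of arrays limits the precision. The 9 members and the lists were chosen with earlier results of these data known. Named from the list of other complement genes were those called in any comparison, *C3ar1*, *C5ar1*, *Cd55* and *Cr1l*; *C5ar2*, *Cfhr2* and *C1s1*, and the markers *Cd14*, *Fcgr1*, *Zbtb46* and *Dcn*, were added after their values were seen; 1 gene of the planned list is not reported here. The 5 most similar genes were named for the C1q chains, *C3* and *Cfb*. Marker lists covered macrophages, dendritic cells, neutrophils, fibroblasts, B cells, T cells and mast cells. Alternatives were 75th percentile scaling, normexp background correction (offset 50), the deposited log2 values, dim probes left out, outlier spots kept, a trended prior, fits of the groups compared, replicate number as a block, each array left out, and the mean over probes. For any comparison, leaving out an array of the group not compared gave the same result as fitting the groups compared. Those settings are therefore not separate checks.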

Additional observations from a re-analysis of the deposited data

How the results depend on the processing

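Signal over background limited *Serping1*, which was measured only on the LPS arrays, and the 18 other complement genes above background on no array. Over 15 alternatives, the LPS calls of *C3*, *Cfb* and *C1ra* were met under all, and that of *C1s2* under 14 of 14 with the filter on dim probes not counted. Calls between LPS + inhibitor and LPS depended on the arrays fitted. The cause of the changes below was not tested, except that leaving out arrays or dim probes changes the number of arrays or probes tested.

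Under 75th percentile scaling, 16198 genes and 21 other complement genes were called with LPS and 15536 and 15 between LPS + inhibitor and untreated BMDMs, where 2 members were called. The LPS differences became 0.46 log2 for *C1qa*, 0.44 for *C1qb*, 0.36 for *C1qc*, 0.16 for *Cfp* and 0.22 for *Calr*, and the calls of *Cd93*, *Itgam* and *C1qbp* were lost, while the median of all genes moved by 0.40. Against untreated BMDMs *C1qc* became 0.0021 and *Cfp* 0.26, and against LPS *C1qbp* became -0.013. With normexp, LPS + inhibitor against LPS gave 5257 genes and 7 other complement genes, and against untreated BMDMs 2 members. Leaving out dim probes gave 5134 genes against LPS, and 2 members and 5 others against untreated BMDMs. The deposited log2 values gave 2 others against LPS. Fitting the groups compared gave 0 members, 0 genes and 0 others against LPS and 3301 genes against untreated BMDMs. With the mean over probes *Lrp1* became 0.0020 against LPS and *Cfhr2* -0.48 against untreated BMDMs.

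Replicate numbers were not tied to shared experiments by the labels. They matched the columns of the slide in every group, so a shared experiment and a slide column cannot be told apart here. Over 20721 probes above background, the replicate differences of the groups correlated with r of 0.47, 0.40 and 0.42. With replicate number as a block, 3 members were called with LPS, *C2* in addition (adjusted p = 0.0244, over a range of 0.0244 to 0.459). Against LPS 1 was called, *C3* (0.0459), where *Cfb* had 0.0539, and against untreated BMDMs 1, *C1qb* (0.0397, over a range of 0.0397 to 0.900). Of the other complement genes named, *C3ar1* (0.0246) and *Cfhr2* (0.0466) were called with LPS only in this fit. All genes called came to 7638, 2549 and 5488 in these comparisons.

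Leaving out 1 array, where the lone sample of a group was assumed to vary like the rest, gave with LPS 2782 to 6609 genes and 3 to 7 others, against LPS 0 to 2 members, 0 to 3092 genes and 0 to 4 others, and against untreated BMDMs 1037 to 3860 genes and 1 to 4 others. The LPS differences ranged from -0.52 to 0.27 log2 for *C1qa*, -0.35 to 0.096 for *C1qb*, -0.43 to 0.046 for *C1qc* and -0.053 to 0.64 for *C4b*. Those against LPS ranged from -0.93 to 0.028 for *C1qa*, -0.45 to 0.025 for *C1qc*, -0.53 to -0.086 for *C1qb*, -0.73 to -0.29 for *C2*, 0.083 to 0.51 for *Cfp*, -1.35 to -0.43 for *C4b* and -0.27 to 0.21 for *C3ar1*, and those against untreated BMDMs from -0.040 to 0.34 for *C2*, -0.28 to 0.012 for *Cfp*, -1.06 to -0.10 for *C1qa*, -0.64 to -0.23 for *C1qb*, -0.58 to -0.22 for *C1qc*, 0.51 to 1.08 for *C3*, -1.05 to -0.13 for *C4b* and -0.12 to 0.44 for *Cfhr2*.

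In a repeat of the search for similar genes, chosen after seeing the data, 0 of the 5 genes named for the C1q chains and 1 of those for *C3* were found again under 75th percentile scaling, and 2 and 1, with 3 of those for *Cfb*, with normexp. The deposited values gave 1 for the C1q chains and 2 for *C3*.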
